A study of Mus musculus with 6 samples.

Results

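The TAM system was described here by its 5 genes: the ligand genes Gas6 and Pros1 (protein S) and the receptor genes Axl, Mertk and Tyro3. They were found by gene symbol among the 18059 genes of each deposited table, and all 5 (Entrez genes 14456, 19128, 26362, 17289 and 22174 in that order) were present in each table and passed the filter on low counts. The set was proposed with results of these libraries known, so its members were chosen from the same difference between PDGF-DD and control that is given below. Their differences are therefore a description, given with standard errors and intervals but with no test.

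TYRO3, AXL and MERTK, whose initials name the TAM family, are receptor tyrosine kinases. Their ligands are large secreted proteins that carry a vitamin K-dependent Gla domain at one end and laminin G-like domains at the other. The Gla domain binds phosphatidylserine on dying cells and platelets, and the laminin G-like domains bind the receptor, so a ligand can bridge a dying cell to a cell that takes it up. GAS6 binds all TAM receptors and is the known ligand of AXL, whereas protein S, also an anticoagulant of plasma, acts on TYRO3 and MERTK. MERTK is best known from macrophages that clear dying cells, among them the macrophages of the heart, and AXL is widespread in mesenchymal cells such as fibroblasts. Gas6 was cloned as a growth arrest-specific gene of fibroblasts, expressed when growth stops in low serum.

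The data were messenger RNA profiles of primary cardiac fibroblasts of C57BL/6 mice, isolated at an age of 1 to 2 weeks and grown with 15% serum. The control group received saline and the PDGF-DD group received PDGF-DD, a dimer of the growth factor PDGF-D in its active form, each for 12 hours, with 3 libraries per group. The labels give the dose as 20 µM, a concentration so high for such a protein that the unit may be wrong. The labels conflict on genotype. Their protocol derives all cells from mice with a global knockout of PDGF-D, whereas their genotype field reads control for the saline samples and PDGF-D -/- for the PDGF-DD samples. If that field is right, genotype and treatment cannot be told apart. Pdgfd, the targeted gene, had 91 to 118 reads per control library and 69 to 82 per PDGF-DD library, so it was detected in all 6 and lower in every PDGF-DD library. Gene-level counts cannot tell whether the edited part was missing. The labels do not say whether libraries came from separate cultures, so a p-value here reflects nothing beyond the spread of these libraries, which may be technical.

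Each library held between 21221114 and 21371829 estimated read counts. The libraries of control replicate 1 and the other controls differed more (chi-square per degree of freedom 5.11 and 5.71) than any other pair within a group (1.90 to 2.74). Fibroblast markers had the highest sum of the marker lists. The 10 together took 46645 to 48766 CPM (counts scaled to library size) in control and 41501 to 42220 CPM with PDGF-DD. Most of that sum was Col1a1, Col1a2 and Col3a1, with control means of 20773, 11522 and 11330 CPM. Marker lists of other cell types had lower sums, and those that bear on the TAM genes are given beside them.

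The promoter windows of the 3 members whose groups did not overlap are shown because Gas6 was lower and Axl and Mertk were higher with PDGF-DD. The sequences are from RefSeq (assembly GRCm38.p6, a later build than the mm9 named in the submitters' processing notes) and were matched by symbol, as were all 5 members. Each runs 5′ to 3′ on the strand of the gene from 250 bases before the transcription start to 50 bases after it. Capitals mark matches, on either strand, to the motif letters listed after the sequences. The Gas6 window lies at chr8:13494486-13494785, the Axl window at chr7:25788684-25788983 (both on the minus strand) and the Mertk window at chr2:128698665-128698964 (plus strand).
Gas6: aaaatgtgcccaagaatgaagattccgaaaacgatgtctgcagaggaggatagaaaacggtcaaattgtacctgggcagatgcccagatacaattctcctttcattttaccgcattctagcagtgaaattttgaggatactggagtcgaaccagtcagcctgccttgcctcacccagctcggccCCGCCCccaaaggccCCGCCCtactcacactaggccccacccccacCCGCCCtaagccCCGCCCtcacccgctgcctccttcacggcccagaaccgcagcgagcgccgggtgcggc
Axl: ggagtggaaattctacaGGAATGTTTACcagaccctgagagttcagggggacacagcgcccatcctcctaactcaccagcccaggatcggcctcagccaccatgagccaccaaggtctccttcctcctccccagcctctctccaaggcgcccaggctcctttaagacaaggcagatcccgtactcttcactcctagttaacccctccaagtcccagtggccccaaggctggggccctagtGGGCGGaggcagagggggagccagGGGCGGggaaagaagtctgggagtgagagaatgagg
Mertk: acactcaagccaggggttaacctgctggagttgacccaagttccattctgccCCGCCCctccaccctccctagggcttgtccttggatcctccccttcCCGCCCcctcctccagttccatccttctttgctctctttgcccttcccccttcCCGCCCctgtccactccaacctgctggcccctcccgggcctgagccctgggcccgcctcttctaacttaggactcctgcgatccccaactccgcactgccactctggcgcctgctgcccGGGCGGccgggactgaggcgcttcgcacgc

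The motifs searched were the letters GGAATG (bound by TEAD factors), TGTTTAC (FoxO), TGACTCA (AP-1), CACGTG (E-box), CCGGAAG (ETS) and GGGCGG (GC box). Windows of all 5 members held GC boxes, which 35.7% of all 32851 windows of this length also hold. The Axl window alone of the 5 held the TEAD letters, found in 14.7% of all windows, and the FoxO letters, found in 3.65%. In Axl these overlap by 2 bases in the run of capitals near its 5′ end. No member's window held the AP-1, E-box or ETS letters. The Axl window had 6 CpG dinucleotides against a median of 7 over all windows, while the Mertk window had 14, Gas6 17, Pros1 21 and Tyro3 31. A match is only a match of letters, and no binding was measured.

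Gas6 was lower with PDGF-DD. Its CPM, the estimated count per TMM-scaled library, was 161, 164 and 169 under saline and 93.2, 101 and 93.8 under PDGF-DD. Every PDGF-DD library was below every control library, and the gap between the groups was several times the spread within them. The mean went from 164 ± 4.29 to 96.1 ± 4.62 CPM (SD over 3 libraries per group), and the log2 fold change was -0.77 (SE 0.04, 95% interval -0.86 to -0.69), or 1.71-fold lower. On the length-scaled TPM scale Gas6 stood at 148 ± 7.49 in control and 85.7 ± 3.05 with PDGF-DD. By the size of its log2 fold change Gas6 ranked 382 among the 13270 genes tested.

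A few Gas6 reads could not be assigned to it alone. RefSeq places Tmem255b across part of Gas6, and the estimated counts of Gas6 were not whole numbers in any library (3408.91 in control replicate 1). The sum of Gas6 and Tmem255b was whole to 2 decimals in all 6 libraries, for example 3417 in control replicate 1 and 1989 in PDGF-DD replicate 1. Tmem255b took between 0.150% and 0.610% of this sum, so the sharing is small beside the difference in Gas6. No other gene of that table overlaps Pros1, Axl, Tyro3 or Mertk, and the counts of these 4 were whole.

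Pros1 was nearly the same in both groups, unlike Gas6. Protein S transcripts stood at 68.8, 75.4 and 67.9 CPM under saline and 69.0, 70.1 and 68.7 CPM with PDGF-DD. The groups overlapped, with control replicate 2 the highest of all 6 libraries. The log2 fold change was -0.03 (SE 0.05, 95% interval -0.13 to 0.07), which is smaller than the spread between the control libraries. The sum of both ligands went from 197 ± 9.63 to 134 ± 2.91 TPM, and the difference lay almost wholly in Gas6.

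Axl was by far the most abundant TAM gene and was slightly higher with PDGF-DD. It stood at 1166, 1179 and 1172 CPM under saline and 1312, 1265 and 1296 CPM with PDGF-DD. The groups did not overlap, although the step was small beside that of Gas6. The means were 1172 ± 6.66 and 1291 ± 23.8 CPM, a log2 fold change of 0.14 (SE 0.03, 95% interval 0.07 to 0.21), or 10.1% higher. Its size was close to the median absolute log2 fold change of 0.15 over all tested genes.

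Among the 3 TAM receptor genes Mertk had the largest log2 fold change. Its CPM was 32.3, 32.7 and 32.8 in control and 52.3, 51.3 and 53.8 with PDGF-DD. The control libraries lay close together, and every PDGF-DD library was far above them. The mean went from 32.6 ± 0.24 to 52.5 ± 1.26 CPM (SD), and the log2 fold change was 0.69 (SE 0.05, 95% interval 0.58 to 0.79), or 1.61-fold higher. These values rest on 686 to 693 counts per library in control and 1099 to 1155 with PDGF-DD.

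Tyro3 showed no such step. Its estimated counts were 695, 688 and 715 under saline and 707, 696 and 750 under PDGF-DD, or 32.5 to 33.8 CPM over the control libraries and 32.5 to 35 CPM over the PDGF-DD libraries. The groups overlapped and the log2 fold change was 0.02 (SE 0.06, 95% interval -0.09 to 0.14). With 688 to 750 counts per library Tyro3 rested on about as many reads as Mertk did in control.

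**Figure D1:**
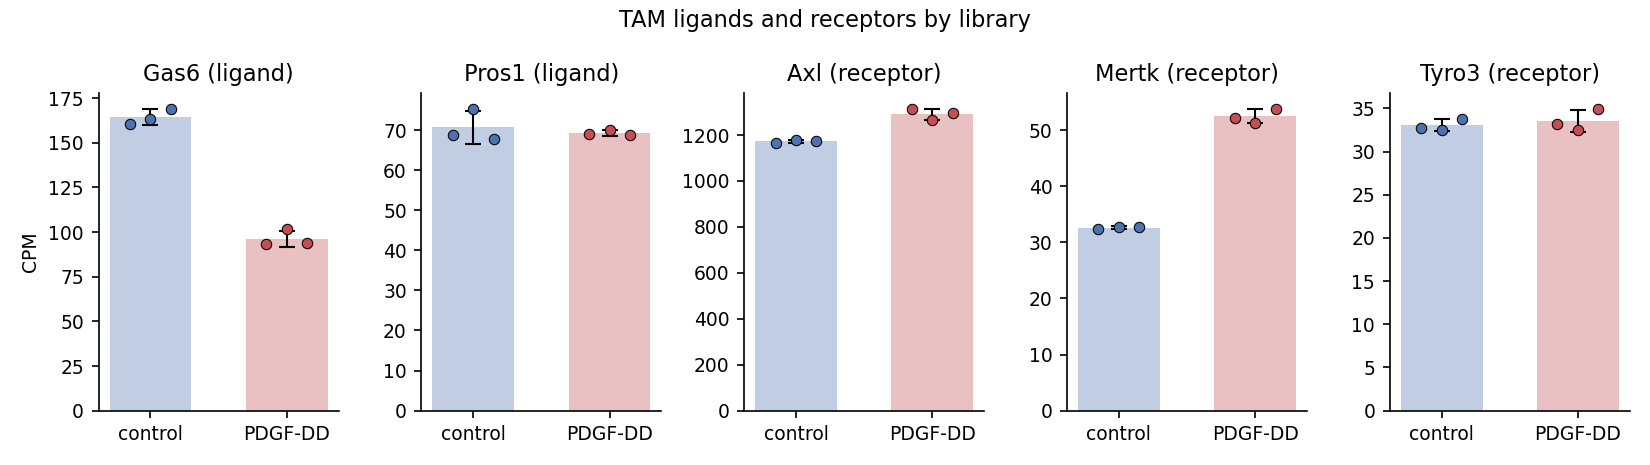
CPM of the 5 TAM genes in each library (points), with the mean (bar) and SD (error bar) of the 3 control and 3 PDGF-DD libraries; each axis starts at 0. Gas6 is lower with PDGF-DD, Mertk is higher, Axl is slightly higher, and the groups of Pros1 and Tyro3 overlap.

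In the fit across all genes 1 member was past the threshold as lower (Gas6) and 2 as higher (Axl and Mertk). Over all tested genes 36.5% were past it, 19.1% as higher and 17.4% as lower. The CPM values of the groups did not overlap for the same 3 members, and for 47.1% of all tested genes. Because the members were chosen with this contrast known, nothing is read from these counts.

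The order of the TAM genes was compared in TPM, which accounts for transcript length. In control it was Axl (649 ± 22.2 TPM), Gas6 (148 ± 7.49), Pros1 (49.7 ± 3.68), Tyro3 (19.9 ± 0.78) and Mertk (16.9 ± 0.61). With PDGF-DD it was Axl (712 ± 22.0 TPM), Gas6 (85.7 ± 3.05), Pros1 (48.4 ± 0.14), Mertk (27.0 ± 0.92) and Tyro3 (20.0 ± 0.96). Mertk and Tyro3 thus changed places. In each group the ranges of neighbouring genes did not overlap, so every step in both orders exceeded the spread between libraries. Among all 18059 genes Axl ranked 230 by its control TPM, and Mertk ranked 6890.

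Effective transcript lengths implied by the deposited counts and FPKM values differed little between libraries. They were 2.54 kb in all libraries for Gas6, 4.41 to 4.42 kb for Mertk and 4.10 to 4.13 kb for Axl. Pros1 had 3.23 to 3.25 kb and Tyro3 3.78 to 3.84 kb. In TPM control replicate 1 was the lowest control library for all 5 genes, which was not so in CPM for Pros1 and Tyro3.

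Ratios within a library do not depend on the scaling between libraries. Gas6 stood at 2.98, 2.77 and 3.18 times the TPM of Pros1 under saline and at 1.73, 1.85 and 1.74 times with PDGF-DD. Gas6 thus remained the more abundant ligand transcript in all 6 libraries, by a smaller margin in the PDGF-DD libraries. The Axl to Gas6 ratio, which sets the main receptor transcript against its ligand, was 4.47, 4.45 and 4.27 in control and 8.74, 7.72 and 8.53 with PDGF-DD. The groups did not overlap in either ratio, but both ratios contain Gas6, whose own values did not overlap between the groups.

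Among the receptors the Mertk to Tyro3 ratio was 0.844, 0.870 and 0.832 in control and 1.35, 1.37 and 1.33 with PDGF-DD. It was below 1 in each control library and above 1 in each PDGF-DD library. Summed over the 3 receptors, TPM went from 686 ± 23.4 to 759 ± 23.4. Axl made up 94.6 ± 0.09% of this sum in control and 93.8 ± 0.16% with PDGF-DD, and Mertk 2.46 ± 0.01% and 3.55 ± 0.08%. The summed TAM receptor transcripts were therefore almost all Axl in both groups, with a larger share of Mertk in every PDGF-DD library than in any control library. Receptor protein was not measured.

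**Figure D2:**
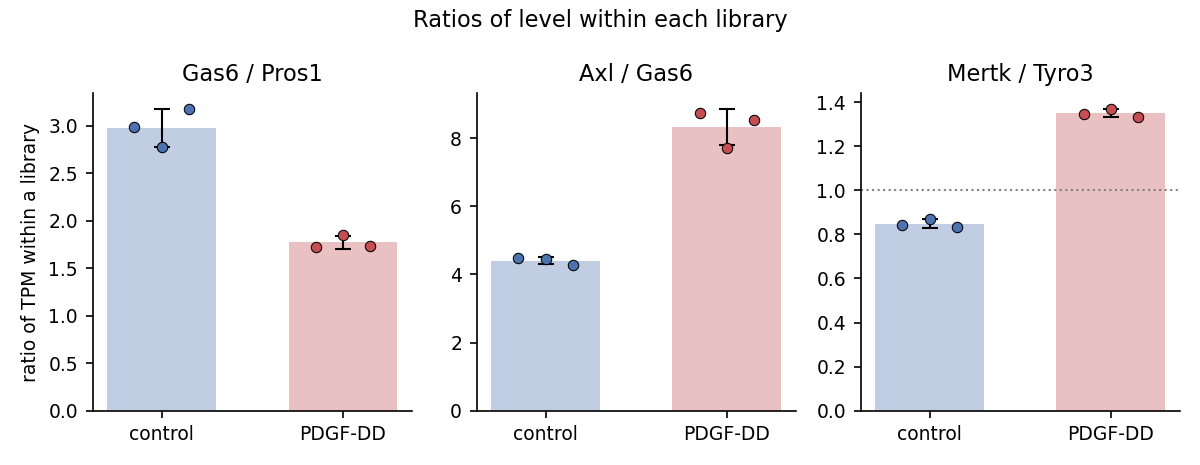
Ratios of TPM within each library (points) for Gas6 to Pros1, Axl to Gas6 and Mertk to Tyro3, with mean (bar) and SD (error bar, n = 3 per group); the dotted line in the last panel marks a ratio of 1. The groups do not overlap in any panel, and only the Mertk to Tyro3 ratio crosses 1.

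Set beside the other receptor tyrosine kinases, Axl was the most abundant of the 57 in the tables. It made up 31.2% to 32.4% of their summed TPM in the control libraries and 35.8% to 36.5% in the PDGF-DD libraries. Pdgfrb, the receptor for PDGF-DD, was the next most abundant at 352 ± 26.3 TPM in control and 266 ± 8.03 TPM with PDGF-DD. The other receptors among the 5 most abundant beside the TAM genes were Fgfr1 (an FGF receptor), Ddr1 and Ddr2 (collagen receptors) and Ryk (a Wnt co-receptor), with control means between 96.9 and 161 TPM. By mean TPM Mertk ranked 17 in control and 13 with PDGF-DD, and Tyro3 ranked 14 and 15.

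**Figure D3:**
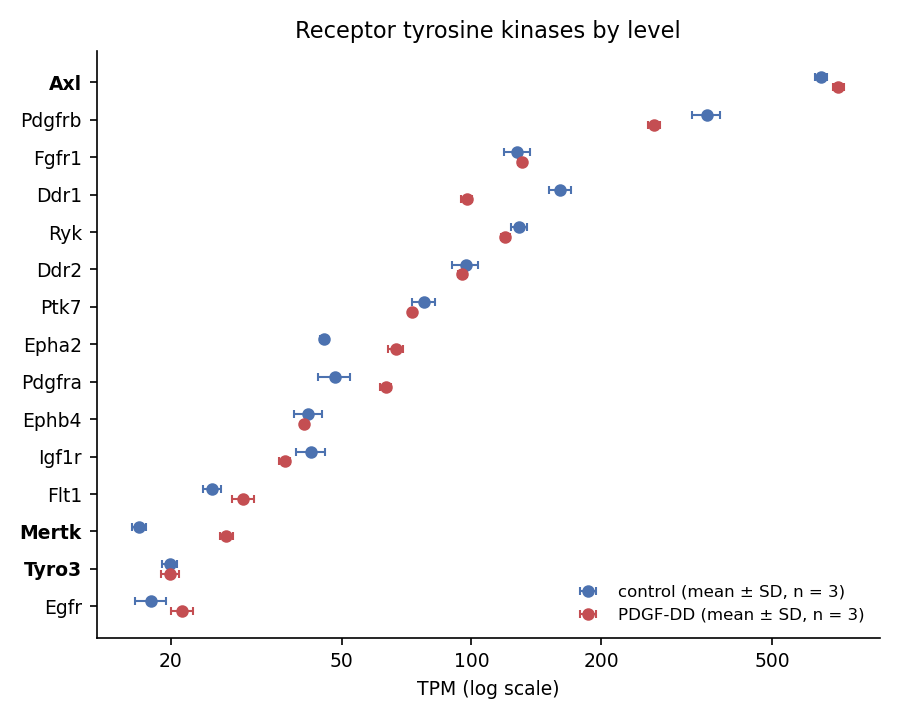
TPM on a log axis of the 15 receptor tyrosine kinases with the highest mean TPM over the 6 libraries, as mean ± SD of 3 control and 3 PDGF-DD libraries; TAM receptors are in bold. Axl lies above all others in both groups, and Mertk passes Tyro3 only with PDGF-DD.

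Of 44 other receptor tyrosine kinase genes that were tested, 6 rose and 14 fell, or 45.5% against 36.5% of all tested genes. Their median log2 fold change was -0.09 against -0.01 over all tested genes. Ddr1 fell from 264 ± 11.2 to 161 ± 5.95 CPM (edgeR adjusted p = 7.61e-13, log2 fold change -0.71 with SE 0.04). Ephb2, an ephrin receptor, fell by 0.71 on the log2 scale (edgeR adjusted p = 4.8e-10), and Epha2, another ephrin receptor, rose from 75.9 ± 1.83 to 111 ± 3.43 CPM (edgeR adjusted p = 2.21e-10, log2 fold change 0.55). Pdgfrb fell by 0.40 on the log2 scale. Across the alternatives 6 or 7 of these genes rose and 12 to 16 fell.

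Since MERTK marks macrophages, the Mertk values were set beside 16 macrophage and leukocyte markers. Their summed level was 138 to 140 CPM under saline and 121 to 132 CPM with PDGF-DD, a difference that was not tested. Of 15 tested markers none rose and 1 fell, or 6.67% against 36.5% of all tested genes. The marker that fell was Laptm5 (edgeR adjusted p = 0.0393, log2 fold change -0.17). The call of Laptm5 was lost in 9 of 11 alternatives, with an adjusted p between 0.0212 and 0.165. Over the alternatives 0 to 2 of the markers fell and none rose. The pan-leukocyte gene Ptprc stood at 3.38 ± 0.33 CPM under saline and 2.59 ± 0.14 CPM with PDGF-DD, and the macrophage gene Adgre1 at 5.19 ± 0.81 and 4.32 ± 0.38 CPM. Csf1r, the receptor on which macrophages depend, stood at 12.6 ± 0.73 and 13.1 ± 0.48 CPM. None of the 16 markers was at 0 in all libraries, and Aif1 was too low to test with 2 to 9 counts per library. In bulk libraries fewer cells of a type and less RNA per cell cannot be told apart, and which cells carried Mertk was not measured.

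**Figure D4:**
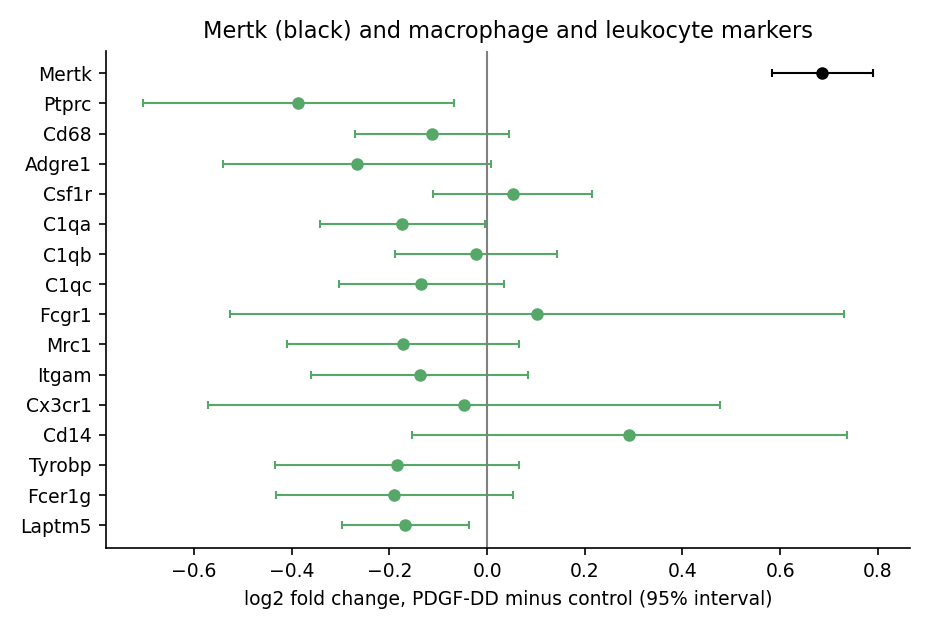
Log2 fold change of Mertk (black) and of the 15 tested macrophage and leukocyte markers (green), PDGF-DD minus control, as points with unadjusted 95% intervals from the fit across all genes. Mertk lies at 0.69, and of the markers only Csf1r, Fcgr1 and Cd14 lie above 0, each with an interval that includes 0.

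Markers of other cell types were also measured, and their part in the TAM values was not tested. Of 10 fibroblast markers 1 rose (Pdgfra) and 7 fell, among them Tcf21, a transcription factor of cardiac fibroblasts, from 131 ± 4.60 to 86.4 ± 2.50 CPM. Of 8 tested smooth muscle and pericyte markers 1 rose and 5 fell (4 in 4 of 11 alternatives, in which the call of Rgs5 was lost). The markers of this list summed to 7154 to 7698 CPM in control and 5885 to 6001 CPM with PDGF-DD. Most of that sum was Acta2 (5327 ± 209 and 4108 ± 101 CPM) and Tagln (1780 ± 67.4 and 1591 ± 39.6 CPM), while Myh11 averaged 24.5 and 12.0 CPM. Which cells carried Acta2 and Tagln was not measured, so the sum does not measure smooth muscle cells or pericytes. Summed endothelial markers took 255 to 275 CPM under saline and 237 to 244 CPM with PDGF-DD, with 1 of 9 lower (3 without control replicate 1). Cardiomyocyte markers took 164 to 174 CPM and 119 to 134 CPM, with 3 of 8 lower (2 in several alternatives). Of these calls that of Ryr2, on 9 to 19 counts per library, was lost in 9 of 10 alternatives. Tnnt2 alone averaged 156 ± 5.20 and 115 ± 8.94 CPM. Schwann cell markers summed to 23.4 to 27.1 CPM and 22.0 to 23.2 CPM (1 of 5 lower, a call lost in 3 of 11 alternatives), and epicardial markers to 78.2 to 88.1 CPM and 78.6 to 83.1 CPM (1 of 6 lower, 2 without control replicate 1).

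Around the TAM genes 113 further genes were listed by their role, of which 109 were in the tables and 91 could be tested. Of these 16 rose and 15 fell, which is 34.1% and close to the 36.5% of all tested genes. Their median log2 fold change was -0.03, against -0.01 over all tested genes. All gene lists, that of receptor tyrosine kinases included, were chosen with earlier results of these data known. The shares called are therefore a description only, and single groups are described next.

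The genes Ggcx, whose enzyme carboxylates both ligands, and Vkorc1 did not pass the threshold. Ggcx, the gamma-carboxylase, ranged from 67.5 to 71.4 CPM in the control libraries and from 68.5 to 70.8 CPM in those with PDGF-DD, and Vkorc1, which recycles vitamin K, averaged 57.7 ± 5.30 and 59.1 ± 2.03 CPM. Of the 9 genes of the vitamin K cycle and of Gla protein processing 1 rose and 2 fell. Vkorc1l1, a relative of Vkorc1, rose by 0.22 on the log2 scale, and the proprotein convertase genes Pcsk6 and Pcsk5 fell by 0.28 and 0.41 on the log2 scale. The most abundant member of the list was Calu, an inhibitor of the carboxylase, with a log2 fold change of -0.02 (SE 0.04).

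The 2 other Gla protein genes that passed the threshold went in opposite directions. Mgp, which encodes the calcification inhibitor matrix Gla protein, rose from 329 ± 21.9 to 479 ± 13.3 CPM (edgeR adjusted p = 4.16e-10, log2 fold change 0.54 with SE 0.04). The transmembrane Gla protein gene Prrg3 fell by 0.60 on the log2 scale (edgeR adjusted p = 2.53e-07). The other 5 of 7 tested genes did not pass, and the remaining 8 of the 15 listed were too low to test. Lgals3 (galectin-3), also reported to bind MERTK, averaged 88.0 ± 3.74 CPM in control against 91.9 ± 4.47 with PDGF-DD.

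The ectodomains of AXL and MERTK are shed by the surface proteases ADAM10 and ADAM17, which TIMP3 inhibits. Of these 3 genes and Rhbdf1 and Rhbdf2, whose products regulate ADAM17, 2 fell and none rose. Adam10 fell by 0.19 on the log2 scale (SE 0.04, edgeR adjusted p = 0.00044), while Adam17 stood at 61.5 ± 0.87 and 59.2 ± 1.24 CPM. Timp3 fell from 988 ± 60.5 to 743 ± 29.6 CPM (edgeR adjusted p = 6.06e-08, log2 fold change -0.41). Transcripts of a sheddase and of its inhibitor were thus both lower, and shedding was not measured.

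Of 11 tested genes for scramblases and flippases, which move phosphatidylserine across the membrane, 1 rose and 2 fell. Xkr4, a scramblase gene of low level, fell from 15.4 ± 0.99 to 6.72 ± 0.77 CPM (edgeR adjusted p = 1.71e-10, log2 fold change -1.20 with SE 0.09), and the flippase gene Atp11a by 0.25 on the log2 scale. Plscr1 passed as higher (edgeR adjusted p = 0.0223, log2 fold change 0.20), a call lost in 4 of 11 alternatives, with an adjusted p between 0.0161 and 0.099. Without control replicate 1 the number that fell was 4. Ano6, the most abundant, had a log2 fold change of -0.03 (SE 0.04).

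Among genes of other routes of phosphatidylserine recognition, those of 2 integrin beta chains of receptors for the bridging protein MFG-E8 changed in opposite directions. Itgb3 rose from 36.2 ± 0.14 to 53.6 ± 3.13 CPM (edgeR adjusted p = 4.02e-09, log2 fold change 0.56), and Itgb5 fell from 1069 ± 34.5 to 750 ± 31.2 CPM (edgeR adjusted p = 1.12e-10, log2 fold change -0.51). The alpha chain gene Itgav, their shared partner, averaged 455 ± 23.1 and 463 ± 33.0 CPM and was not past the threshold (edgeR adjusted p = 0.729). The bridging ligand gene Mfge8 averaged 713 ± 15.9 and 671 ± 7.24 CPM without passing the threshold (edgeR adjusted p = 0.0605), although it did with upper-quartile scaling (0.0197) and without control replicate 1 (0.0262). Cd300lb rose by 0.70 on the log2 scale on 51 to 92 counts per library. In all 2 of 11 tested genes rose and 1 fell.

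In the engulfment list 7 of 19 genes rose and 4 fell, or 57.9% against 36.5% of all tested genes. Across the alternatives 5 to 9 rose and 3 to 5 fell (5 and 4 without control replicate 1). Thbs1 (thrombospondin 1), the most abundant, rose from 3064 ± 166 to 4011 ± 168 CPM (edgeR adjusted p = 5.49e-08, log2 fold change 0.39), and the engulfment receptor gene Megf10 rose by 0.42 on the log2 scale. The adaptor gene Gulp1 fell from 32.2 ± 1.12 to 22.4 ± 1.23 CPM, and the receptor gene Lrp1, to which that adaptor binds, from 2127 ± 111 to 1721 ± 33.0 CPM.

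Genes of signalling downstream of TAM receptors mostly did not pass: 2 of 21 rose and none fell, or 9.52%. Both that rose encode Twist factors, which AXL signalling is reported to induce. Twist1 rose from 19.6 ± 0.23 to 25.9 ± 0.52 CPM (edgeR adjusted p = 1.27e-05, log2 fold change 0.41) and Twist2 by 0.35 on the log2 scale (edgeR adjusted p = 0.00046). Akt1, a kinase downstream of PI3-kinase and the most abundant of the list, stood at 420 ± 9.99 and 417 ± 4.67 CPM. The median absolute log2 fold change of the list was 0.05, against 0.15 over all tested genes. Transcript levels do not show whether the pathway was active.

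Of the partners of protein S in the anticoagulant pathway only 3 of 7 genes could be tested. Procr, the protein C receptor, rose by 0.30 on the log2 scale and Thbd (thrombomodulin) fell by 0.20 on the log2 scale, while Tfpi stood at 96.2 ± 2.67 and 101 ± 0.10 CPM.

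Of the other genes listed as growth arrest-specific, 2 fell and 1 rose of 4 tested, or 75% against 36.5% of all tested genes. Gas1 fell from 38.7 ± 5.60 to 19.3 ± 1.47 CPM (edgeR adjusted p = 1.24e-05, SE of the log2 fold change 0.10). Pmp22, first cloned as Gas3, fell from 413 ± 12.2 to 274 ± 7.76 CPM (edgeR adjusted p = 8.44e-12, log2 fold change -0.59). Gas7 rose by 0.37 on the log2 scale (edgeR adjusted p = 4.51e-05), and Gas2 stood at 4.44 ± 0.62 and 5.41 ± 0.55 CPM. The growth-arrest name thus did not go with a common direction.

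**Figure D5:**
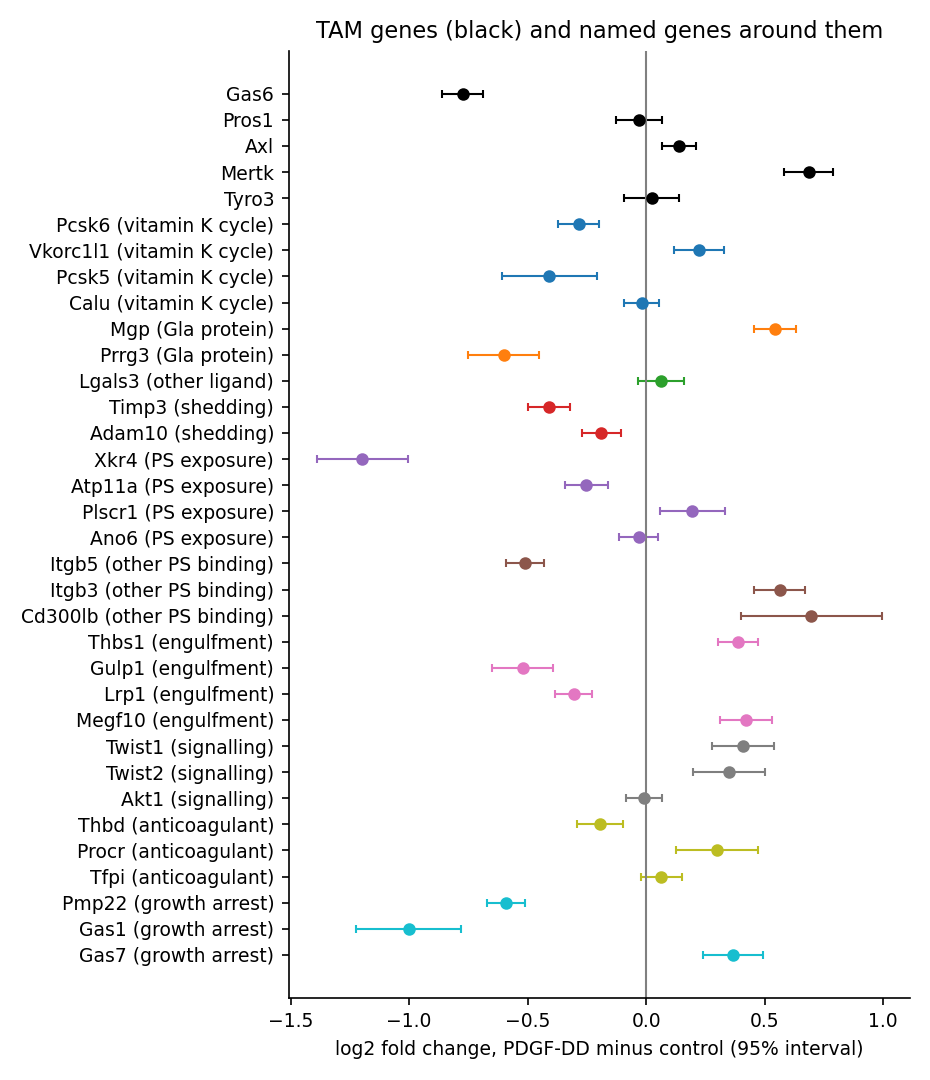
Log2 fold change, PDGF-DD minus control, of the 5 TAM genes (black) and of the genes named from each list around them (1 colour per list; PS is phosphatidylserine), with unadjusted 95% intervals. Gas6 at -0.77 and Mertk at 0.69 lie at opposite ends of the TAM genes, and Xkr4 and Gas1 lie lower than Gas6.

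The genes most like Axl and Gas6, the 2 most abundant members in TPM, were ranked by Pearson's r of log2 CPM over the 6 libraries among the 10459 genes that averaged 5 CPM or more. For Axl they were Ccdc115, Atad2, Cblb, Mapk6 and Clspn, with r between 0.998 and 0.999. For Gas6 they were Osbpl5, Fibin, Cnn2, Klhl13 and Ablim1, with r between 0.998 and 1.00. All points share the difference between the groups, which r therefore carries, and these values are a description only.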

How the data were processed

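Messenger RNA of 6 samples (3 control, 3 PDGF-DD) was isolated with oligo(dT), cut into fragments and copied from random hexamers, per the labels' protocols. HISAT2 2.0.4, Bowtie2 2.2.5, RSEM 1.2.12, DESeq2 1.4.5 and the build mm9 are named, without roles, in the submitters' processing notes. Neither annotation nor strand setting is given in the sources used here. The authors deposited 1 table per library. The estimated counts, made by the authors per gene and library, were deposited in raw form, as the values show, and 31.9% to 32.7% are fractional. FPKM values are scaled by the authors to transcript length and depth, and the TPM values as deposited share 1 total, per the file headers and values.

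Estimated counts were rounded, filtered with filterByExpr (13270 genes left), scaled with TMM factors (0.995 to 1.01) and compared with the two-sided quasi-likelihood F test of edgeR 4.0.16 (robust, R 4.3.3). Calls have a Benjamini-Hochberg adjusted p under 0.05 over all tested genes. Standard errors were derived from the log2 fold change and F, and intervals cover 95%. The method was tested on simulated data. Alternatives were DESeq2 1.42.0, other scalings, no filter, a replicate block, each library left out, and log2 of TPM plus 1 or 0.1. The members and the gene lists were chosen with earlier results of these data known. Genes named were all members; from each list up to 4 called genes, by smallest p, plus the most abundant tested gene; the 5 most abundant receptor tyrosine kinases by TPM; and the 5 genes most like Axl and Gas6. Ggcx, Vkorc1, Adam17, Rhbdf1, Rhbdf2, Itgav, Mfge8, Gas2 and the single marker genes were named after their values were seen. Counting precision is high: each member has at least 686 counts per library.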

Additional observations from a re-analysis of the deposited data

How the results depend on the processing

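The direction of Gas6, Axl and Mertk was the same under all 13 alternatives, and their log2 fold changes ranged from -0.81 to -0.74, from 0.12 to 0.16 and from 0.64 to 0.71. For Axl upper-quartile scaling gave 0.12 and leaving out 1 library 0.14 to 0.16 (the highest without PDGF-DD replicate 2), and for Mertk log2 of TPM plus 1 gave 0.64; the cause was not tested. Pros1 ranged from -0.06 to 0.02 (above 0 only without control replicate 2) and Tyro3 from 0.00 to 0.05. The Axl share of receptor transcripts, lower by 0.82 percentage points in TPM, differed by -0.95 points in CPM, which is not scaled to length. Over all genes 1995 to 2709 were higher and 1611 to 2636 lower, and of the 91 genes around the members 13 to 18 were higher and 14 to 19 lower.

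No pairing of the samples by replicate number was visible: deviations of same-numbered libraries correlated with r = -0.07, -0.09 and -0.03, and none correlated best with its own number. With 3 libraries per group these values cannot tell whether the samples were paired by design. With the replicate block 2269 genes were higher and 2076 lower, and Gas6, Axl and Mertk had log2 fold changes of -0.78, 0.14 and 0.69.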
